A study of Mus musculus with 14 samples.

Results

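A set of 9 genes was followed as the metabolic hormone receptors of mouse granulosa cells (GCs), the somatic cells that surround the oocyte: Lepr, Adipor1, Adipor2, Glp1r, Ghr, Prlr, Thra, Thrb and Nr3c1. The 9 members were listed by name, with earlier results of these data known. All 9 were found among the 55414 genes of the count table, 54749 of which were paired with a mouse symbol through their Ensembl identifiers. RNA-seq was run on GCs of antral follicles from females fed chow until 12 weeks of age, in 14 libraries of about 50 pooled cells each. The db/db group (B6.BKS(D)-Leprdb/J, genotype label db/db -/-, 4 libraries) lacks the long leptin receptor isoform ObRb and the ob/ob group (B6.Cg-Lepob/J, genotype label ob/ob -/-, 3 libraries) lacks leptin. Their lean littermate controls are CT db (genotype label db/db +/+, 4 libraries) and CT ob (genotype label ob/ob +/+, 3 libraries), and both mutations are germline, so every cell of the mutant animals carries them. Nothing in the labels ties a library to 1 animal, so the p-values measure the spread between libraries.

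Metabolic hormone receptors let a cell read the energy state of the body. Leptin, growth hormone and prolactin bind cytokine receptors that signal through JAK2 and STAT proteins, adiponectin binds the AdipoR proteins that couple to AMPK and PPARα, GLP-1 binds a G protein-coupled receptor that raises cAMP, and thyroid hormone and glucocorticoids bind nuclear receptors that act on transcription. In the ovary, these hormones are known to modulate steroid synthesis, follicle growth and luteal function alongside the gonadotropins.

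Library totals ranged from 2204686 to 8367593 counts and differed by group, with 5306632 to 8367593 in ob/ob, 3664219 to 4847166 in CT ob, 3624237 to 4840714 in CT db and 2204686 to 3059777 in db/db. Depth, mouse colony and model therefore cannot be told apart between the 2 mutant groups, whereas the 2 control groups had like totals (medians of 3731548.5 in CT db and 3762905 in CT ob) and differ in colony. Levels are given as CPM, the counts per 1000000 counts of a library total adjusted by the TMM factor, which ranged from 0.803 in CT ob replicate 3, the lowest of the 14, to 1.09. A count of 3 corresponded to 0.369 to 1.30 CPM, depending on the library, and values at or under it were read as not separable from 0. All 12 granulosa markers (among them Fshr, Amh, Foxl2 and Cyp19a1) were above 3 counts in every library, and their summed level was 11621 to 16606 CPM in CT ob against 18776 to 29722 CPM in the other groups. Oocyte markers (8 genes) summed to 5.54 to 60.6 CPM in db/db, 2.81 to 236.0 CPM in CT db, 125 to 680.2 CPM in ob/ob and 64.2 to 1047 CPM in CT ob. Summed markers of other ovarian cells were at 238 to 1440.3 CPM for theca, 14.5 to 329.6 for luteal cells, 6.51 to 84.0 for stroma, 4.78 to 40.4 for endothelium and 2.16 to 24.3 for macrophages and leukocytes over the 14 libraries. Haemoglobin genes were at 0 or up to 0.680 CPM in sum, and the 6 adipocyte markers together did not exceed 4.26 CPM in any library.

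Of the 126 member values (9 genes in 14 libraries), 115 were above 3 counts. Adipor1, Adipor2, Ghr, Prlr, Thra, Thrb and Nr3c1 passed in 14 of 14 libraries, Glp1r in 11 and Lepr in 6. All 9 members were above 3 counts in the 3 ob/ob libraries and in CT ob replicate 3, whereas Lepr was at or under 3 in the 4 db/db libraries, in CT db replicates 1, 3 and 4 and in CT ob replicate 1. Glp1r was at or under 3 counts in CT db replicate 2 and in CT ob replicates 1 and 2. After each library was thinned at random to 2204686 counts, the total of the smallest one, 108 of 126 values remained above 3, with Lepr above it in 3 libraries and Glp1r in 7. At this depth, Glp1r passed in 4 of 4 db/db and 3 of 4 CT db libraries and in 0 of 3 ob/ob and 0 of 3 CT ob libraries, where 1 to 3 counts were left.

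Per kilobase of exon, taken over the merged annotated exons of all isoforms, the members spanned over 2 orders of magnitude in median level over the 14 libraries. The adiponectin receptors stood at the top, Adipor1 at 27.8 CPM per kb and Adipor2 at 11.8, and Adipor1 exceeded Adipor2, and Adipor2 exceeded Prlr, in 14 of 14 libraries. The next 4 members, Prlr at 2.72, Thra at 2.62, Ghr at 1.56 and Nr3c1 at 1.41 CPM per kb, could not be ordered against their neighbours beyond the spread, since Prlr exceeded Thra in 8, Thra exceeded Ghr in 10 and Ghr exceeded Nr3c1 in 9 of 14 libraries. Nr3c1 exceeded Thrb (0.516 CPM per kb) in 14 of 14 libraries. Thrb exceeded Glp1r (0.251) in 9 libraries and Glp1r exceeded Lepr (0.0807) in 10, so that these 3 also overlapped. Percentiles among the genes tested were taken from the mean level per length over the 14 libraries, not the median. Adipor1 lay at the 91st and Adipor2 at the 77.9th percentile, and Thrb at the 6.75th, below Glp1r at the 9.33rd.

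**Figure D1:**
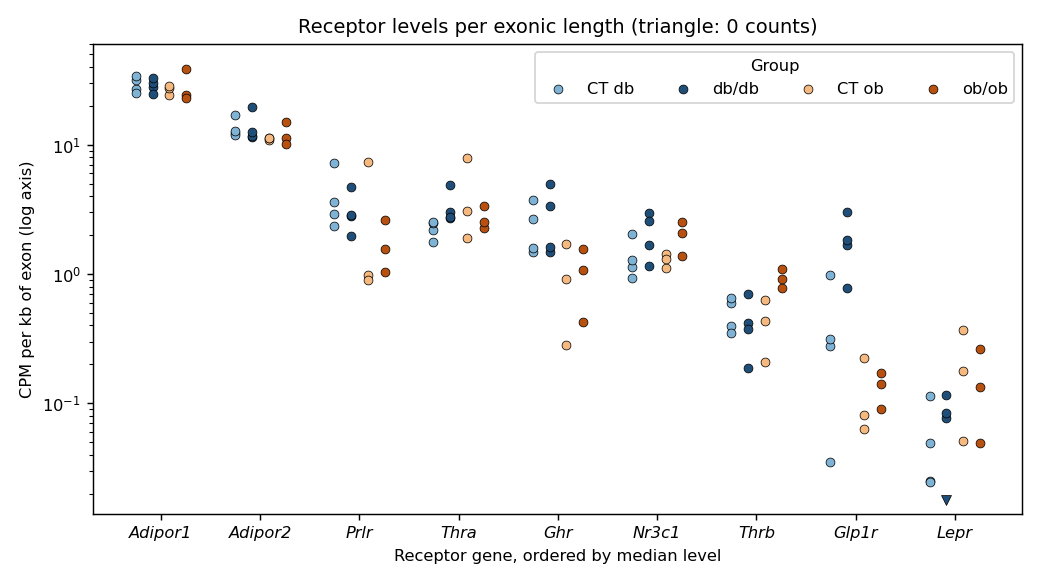
Level of each receptor in CPM per kb of exon (log axis), ordered by the median over 14 libraries, with 1 point per library coloured by group and a triangle for the library with 0 counts. Adipor1 and Adipor2 lie above all other members in every library, and Glp1r shows its highest points in db/db.

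In each of 4 contrasts of groups and in their interaction, edgeR's quasi-likelihood test was run on all genes with enough counts, with Benjamini-Hochberg (BH) adjustment over all of them, and a gene was called at an adjusted p of 0.05 or less. In db/db against CT db, 0 of 8 members tested were called, beside 0.00884% of 11317 genes. In ob/ob against CT ob, 0 of 8 members were called, beside 0% of 12425 genes. The ob/ob and db/db groups, set against each other, gave 0 of 8 members and 0.0159% of 12586 genes. The 2 control groups differed more widely, with 6.63% of 12586 genes called (834) and 0 of 8 members. That total moved with single libraries, to 112 genes without CT ob replicate 3, 376 without CT ob replicate 1, 138, 482 and 201 without CT db replicates 2, 3 and 4 and 1196 without CT db replicate 1 beside 838 without CT ob replicate 2, and was 261 with library totals in place of TMM scaling. The interaction, which is the ob/ob change minus the db/db change, gave 0 of 8 members and 0% of 12586 genes. At an unadjusted p under 0.05, the members counted 2 in the db model (7.59% of all genes), 1 in the ob model (8.16%), 3 between mutants (8.18%), 2 between controls (26.9%) and 2 in the interaction (8.11%). DESeq2 called 0, 0, 1, 0 and 0 members in the same order, the 1 being Glp1r between mutants. The contrasts between models and the interaction use the same libraries as the contrasts within models, and so are not independent of them. In pooled cells, fewer cells of a type and less RNA per cell cannot be told apart.

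**Figure D2:**
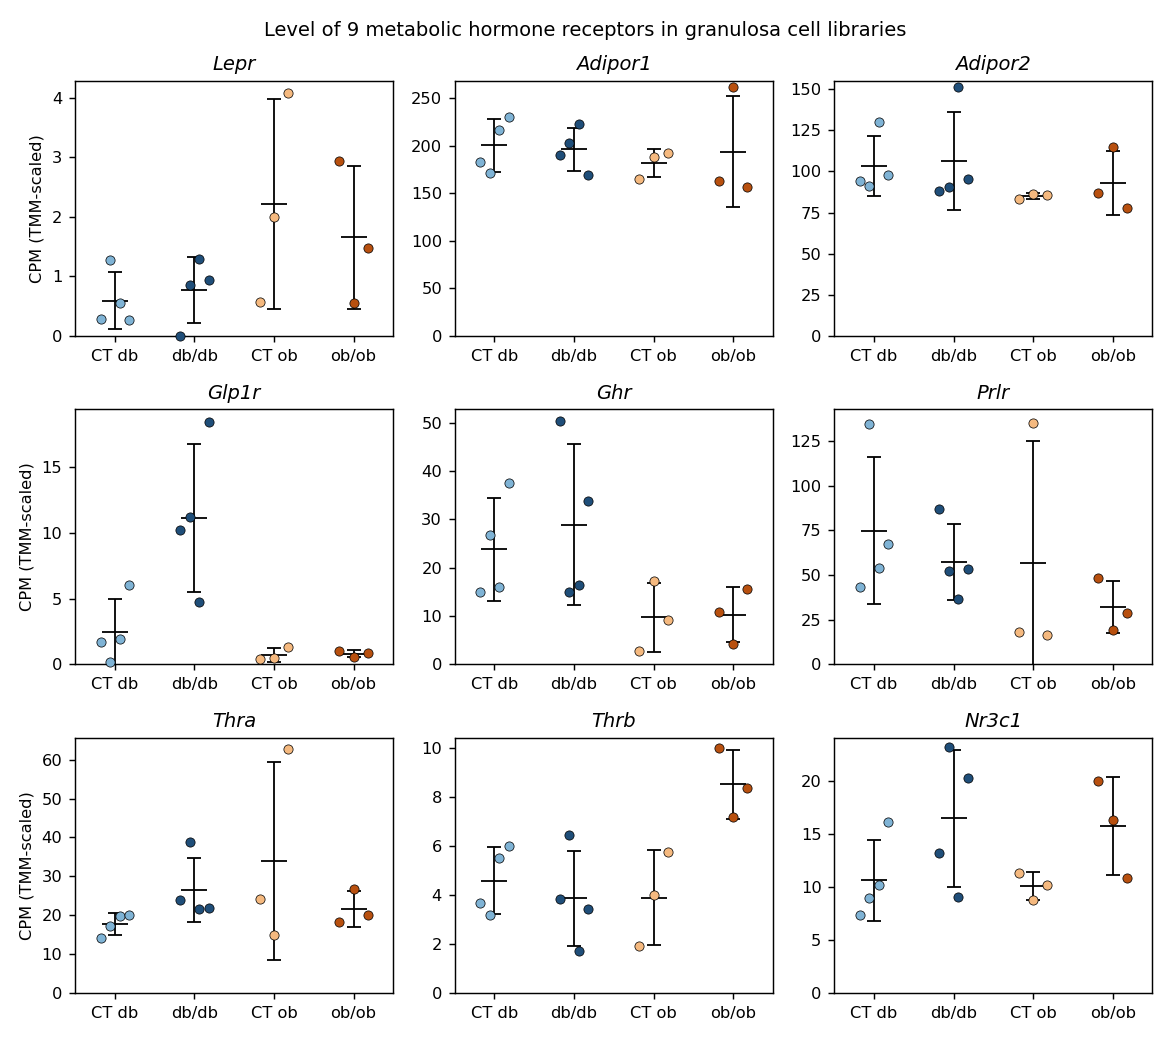
TMM-scaled CPM of each receptor in every library (points) by group, with the mean (bar) and SD (whiskers, drawn to 0 where mean minus SD is negative, as for Prlr in CT ob), n = 4, 4, 3 and 3 from left to right and 1 linear axis per gene starting at 0. Glp1r has its highest mean in db/db, Thrb in ob/ob, and 1 CT ob library each sets the mean of Prlr (135.3 CPM) and Thra (62.9 CPM).

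Lepr, the leptin receptor (ENSMUSG00000057722, chromosome 4, 101574601 to 101676237, plus strand, as all gene positions here in GRCm39), was the scarcest member. Its reads came to 0, 2, 3 and 3 counts in db/db and 1, 6, 2 and 1 in CT db, and to 17, 4 and 12 in ob/ob and 3, 8 and 12 in CT ob. No db/db library exceeded 3 counts, and the library with 0 allows up to 1.28 CPM at 3 counts. Summed over the group, the db/db libraries held 8 Lepr counts, CT db 10, ob/ob 33 and CT ob 23, and the counts cover all isoforms of the gene, so they do not show the loss of ObRb in db/db. Mean levels were 0.774 ± 0.550 CPM in db/db (SD, n = 4), 0.595 ± 0.473 in CT db (n = 4), 1.66 ± 1.20 in ob/ob (n = 3) and 2.22 ± 1.76 in CT ob (n = 3), with overlap in each contrast. Lepr passed the filter on low counts in the ob model alone, where its log2 fold change was -0.38 (SE 0.84, adjusted p = 0.922 by edgeR). For the other contrasts, a two-sided exact permutation test on CPM gave p = 0.571 for db/db against CT db, p = 0.286 for ob/ob against db/db and p = 0.0571 for CT ob against CT db, the smallest possible being 0.0286. A difference in Lepr between groups was not detected. CT ob was above CT db in 11 of 12 library pairs. However, CT db replicates 1, 3 and 4 and CT ob replicate 1 held 3 counts or fewer, which are not separable from 0, so pairs among these libraries are not ordered.

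Of the 14 genes listed for leptin signalling, 13 were tested and 0 were called in any of the 5 comparisons. Lep itself, the ligand, was at 0 counts in all db/db and CT db libraries and at no more than 3 in ob/ob and 2 in CT ob. The gene with the smallest p in the db model was Socs3, a feedback inhibitor of cytokine receptors, at a log2 fold change of 0.67 (SE 0.33, adjusted p = 0.675 by edgeR). In the ob model it was Irs2, an adaptor of insulin and leptin signalling, at -1.15 (SE 0.62, adjusted p = 0.669), and Irs2 also led the interaction at -0.97 (adjusted p = 0.706). Ptpn2, a phosphatase of the JAK/STAT pathway, led both contrasts between models, at -0.61 between mutants (adjusted p = 0.591) and -0.93 between controls (adjusted p = 0.0589). Median log2 fold changes of the list were -0.03 for db and -0.15 for ob, beside 0.01 and -0.04 over all genes tested.

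Adipor1, the adiponectin receptor tied mainly to AMPK (ENSMUSG00000026457, chromosome 1, 134343077 to 134361092, plus strand), was the most abundant member and differed little between groups. It measured 190.1, 203.4, 223.0 and 169.1 CPM in db/db and 183.5, 171.5, 216.5 and 230.7 CPM in CT db. In the ob model, the values were 163.6, 262.0 and 156.8 CPM in ob/ob and 165.4, 188.3 and 192.7 CPM in CT ob. All 4 groups overlapped, and ob/ob replicate 2 was the highest of the 14 libraries. The log2 fold change was -0.03 in the db model (SE 0.14, adjusted p = 0.968), 0.09 in the ob model (SE 0.24, adjusted p = 0.937), -0.02 between mutants (SE 0.19) and -0.13 between controls (SE 0.19).

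Adipor2, the receptor tied mainly to PPARα (ENSMUSG00000030168, chromosome 6, 119330111 to 119394668, minus strand), followed the same flat course. It stood at 88.2, 90.3, 151.1 and 95.6 CPM in db/db and at 94.3, 91.2, 130.2 and 97.7 CPM in CT db. The ob/ob libraries gave 86.6, 114.9 and 77.7 CPM and the CT ob libraries 83.2, 86.2 and 86.0 CPM. One library in each db group, replicate 3, stood above the other 3, and the CT ob values lay below all CT db values. That contrast between controls had a log2 fold change of -0.28 (SE 0.21, adjusted p = 0.404), and 11.4% of all genes tested were likewise lower without overlap there. The changes within the models were 0.04 (SE 0.19, adjusted p = 0.973) for db and 0.12 (SE 0.20, adjusted p = 0.882) for ob. Per length, Adipor1 exceeded Adipor2 by 1.66 to 2.66 times, median 2.26, and the log2 ratio of the pair differed between groups by no more than 0.13 (two-sided exact permutation tests, lowest p = 0.371). Over the 14 libraries, the log2 CPM values of the 2 receptors had r = 0.696, a description over libraries that differ in depth.

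The start regions of Adipor2, a member with a narrow spread, and of Glp1r, the member with the widest range relative to its level, are shown for the sequence context of these genes, as the 250 bases before the RefSeq start in build GRCm38.p6, 5′ to 3′ on the gene's strand, in coordinates that are not comparable with the GRCm39 positions. Capitals mark matches, on either strand, to the GC box (GGGCGG) or to the short core of the cAMP response element (CRE core, TGACG), which were found in 32.7% and 17.8% of 32851 mouse windows of the same length.
Adipor2, chr6:119388735-119388984, minus strand: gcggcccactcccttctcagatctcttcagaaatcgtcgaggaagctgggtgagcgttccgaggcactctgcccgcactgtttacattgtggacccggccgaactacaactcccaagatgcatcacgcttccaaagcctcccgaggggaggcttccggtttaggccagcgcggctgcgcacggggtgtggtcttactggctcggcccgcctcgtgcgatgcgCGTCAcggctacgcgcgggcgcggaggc
Glp1r, chr17:30901617-30901866, plus strand: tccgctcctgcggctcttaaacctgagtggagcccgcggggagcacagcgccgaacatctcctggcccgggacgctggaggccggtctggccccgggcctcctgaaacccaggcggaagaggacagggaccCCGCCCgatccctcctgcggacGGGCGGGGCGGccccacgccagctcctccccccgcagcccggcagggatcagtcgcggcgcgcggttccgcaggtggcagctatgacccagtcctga
Both windows are rich in CG steps, 27 for Adipor2 at 64.8% GC and 26 for Glp1r at 73.2% GC, beside a median of 6 and 52.4%. The Adipor2 window held 0 GC boxes and 1 CRE core on the opposite strand. The Glp1r window held 3 GC boxes, of which 2 overlap by 1 base, and 0 CRE cores. The TATA box (TATAAA, in 12.4% of windows) was searched too and was in neither.

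Of the 15 genes listed for adiponectin and AMPK, 11 were tested in the db model and 12 elsewhere, and calls were made between controls alone. There, 0 rose and 3 fell in CT ob against CT db, beside 282 genes up and 552 down over the whole table. Appl1, the adaptor that binds the AdipoR proteins, was at 137 ± 23.4 CPM in CT ob (SD, n = 3) and 250.9 ± 48.1 CPM in CT db (n = 4), a log2 fold change of -0.86 (SE 0.19, adjusted p = 0.0199 by edgeR). Its relative Appl2 fell by 0.70 (adjusted p = 0.0481) and Prkag2, a regulatory subunit of AMPK, fell by 1.06 (adjusted p = 0.0325) on the log2 scale. With 1 control library left out at a time, Appl1 stayed called in 4 of 7 fits (not without CT ob replicate 3 or CT db replicate 2 or 4), and Appl2 and Prkag2 in 1 of 7 each, the one without CT db replicate 1. The summed granulosa markers were lower in CT ob, where Gja1 alone was at a mean of 6072 CPM against 16894 CPM in CT db. Of the 12 granulosa markers, 4 had a log2 fold change above 0 in that contrast and 2 were called lower, Fshr and Gja1. The part of these markers in the values above was not tested. Camkk2, a kinase upstream of AMPK, led the db model at 0.41 (adjusted p = 0.597), Appl2 the ob model at 0.76 (adjusted p = 0.555), Prkab2 the contrast of mutants at -0.44 (adjusted p = 0.694) and Stk11, which encodes LKB1, the interaction at -0.52 (adjusted p = 0.462). Adipoq, which encodes adiponectin, was at 0 counts in every db/db, CT db and CT ob library and at no more than 3 in ob/ob.

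Glp1r, the receptor of the incretin GLP-1 (ENSMUSG00000024027, chromosome 17, 31120525 to 31159765, plus strand), showed the widest differences between groups of the members. The db/db libraries held 24, 26, 11 and 59 counts, or 10.2, 11.2, 4.76 and 18.4 CPM. CT db held 6, 1, 7 and 22 counts, or 1.69, 0.213, 1.92 and 6.01 CPM. In the ob model, there were 6, 4 and 7 counts (1.04, 0.554 and 0.862 CPM) in ob/ob and 2, 2 and 4 counts (0.383, 0.498 and 1.36 CPM) in CT ob. The db/db libraries were thus the 3 highest of the 14 and a 4th that CT db replicate 4 exceeded, and every ob/ob library was below every db/db library although ob/ob was sequenced deeper. Mean levels were 11.2 ± 5.62 CPM in db/db and 2.46 ± 2.48 in CT db (SD, n = 4 each), and 0.817 ± 0.244 in ob/ob and 0.747 ± 0.534 in CT ob (n = 3 each).

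In db/db against CT db, Glp1r had a log2 fold change of 2.21 (SE 0.65), an unadjusted p of 0.00531 and an adjusted p = 0.465 by edgeR, with db/db above CT db in 15 of 16 library pairs. DESeq2 gave 2.199 with an adjusted p = 0.109. Of the 5 luteal markers, 4 were tested in this contrast, with a median log2 fold change of -4.14 against 0.0101 over all genes tested. In db/db, 3 of them were lower, with edgeR values of -4.16 for Sfrp4 (adjusted p = 6.44e-04, the 1 gene called there), -5.96 for Ptgfr (adjusted p = 0.221) and -4.11 for Akr1c18 (adjusted p = 0.382). The remaining one, Parm1, was at 0.07 (adjusted p = 0.955). The luteal sums were 34.5 to 53.3 CPM in db/db and 57.1 to 123.6 CPM in CT db. Of the 7 theca markers, 5 were tested and 3 of them were above 0, with a median log2 fold change of 0.36. Cyp17a1 was the highest at 2.72 (adjusted p = 0.608 by edgeR), and the theca sums overlapped (306 to 1096 CPM in db/db, 238 to 1174 CPM in CT db). The part of these cell types in the Glp1r value was not tested. Between mutants, the log2 fold change was -3.74 for ob/ob against db/db (SE 0.78, adjusted p = 0.322 by edgeR), the 6th smallest p of 12586 genes, with ob/ob lower in 12 of 12 pairs, as were 4.38% of all genes tested. DESeq2 called this difference at -3.78 (adjusted p = 0.00185). In the same contrast, 8 of 8 oocyte markers were higher in ob/ob, with a median log2 fold change of 3.65 and 0 called by edgeR. The part of oocyte RNA in the Glp1r value was not tested. Between controls, the value was -1.76 (SE 0.86, adjusted p = 0.200) and the interaction -1.98 (SE 1.18, adjusted p = 0.669), so a difference of the db and ob changes was not detected. The ob model was too low to enter the fit, and an exact permutation test on CPM gave p = 0.8 (smallest possible 0.1). Leaving out any single library moved the db value to between 1.80 (without CT db replicate 2) and 3.16 (without CT db replicate 4) and the mutant value to between -3.99 and -3.38, with no call by edgeR. The control value ran from -2.41 without CT ob replicate 3 to -0.80 without CT db replicate 4, and the interaction from -2.94 without CT db replicate 4 to -1.33 without CT ob replicate 3. The highest Glp1r library, db/db replicate 4, held 5.94 CPM of oocyte, 35.6 of luteal, 406 of theca and 35.3 of stroma markers. The lowest of that group, db/db replicate 3, held 60.6, 53.3, 355 and 9.53 CPM in the same order. The part of these cell types in the spread of Glp1r within db/db was not tested.

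Of the 16 genes listed for incretin and glucagon signalling, 9 were tested in the db model and 10 elsewhere. The 1 call was Rapgef4, the cAMP sensor EPAC2, which was at 37.7 ± 8.75 CPM in CT ob and 87.1 ± 25.3 CPM in CT db (log2 fold change -1.21, SE 0.34, adjusted p = 0.0456), and which also had the smallest p of the list in ob/ob against CT ob (0.74, adjusted p = 0.630) and between mutants (-0.69, adjusted p = 0.615). The Rapgef4 call remained in 1 of 7 fits with a control library left out, the one without CT db replicate 1. Gcgr, the glucagon receptor, led the db model at a log2 fold change of 0.86 (SE 0.34, adjusted p = 0.597), from 4.60 ± 1.18 CPM in CT db to 8.38 ± 2.69 CPM in db/db. Prkaca, a catalytic subunit of protein kinase A, led the interaction at -0.36 (adjusted p = 0.673). Gcg, whose product is cut to GLP-1 and glucagon, had 1 count in 1 CT db library and 0 in the other 13.

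**Figure D3:**
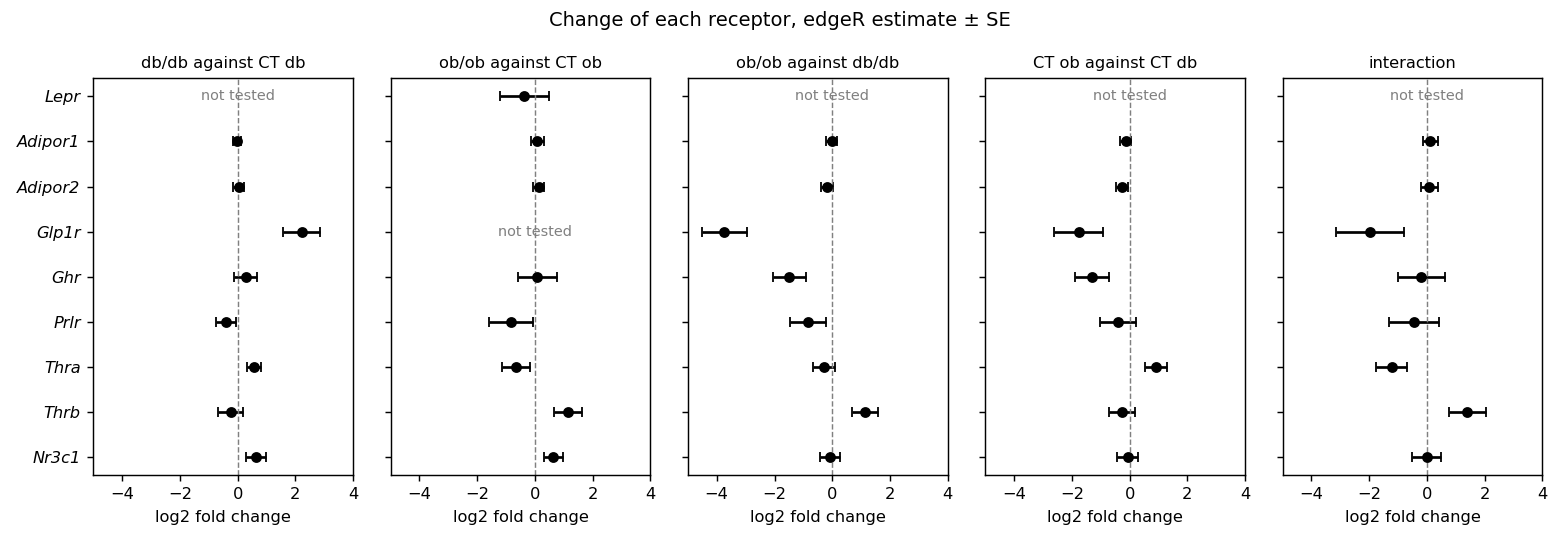
Log2 fold change of each receptor in the 5 comparisons, with points for the edgeR estimate and whiskers for its SE, and the first-named group higher to the right of the dashed line at 0. Glp1r lies at 2.21 in db/db against CT db and -3.74 in ob/ob against db/db, Thrb lies at 1.15 and 1.14 where ob/ob is the first group, Adipor1 and Adipor2 stay close to 0, and no point passed an adjusted p of 0.05.

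Ghr, the growth hormone receptor (ENSMUSG00000055737, chromosome 15, 3347235 to 3613024, minus strand), had higher means in the db libraries than in the ob libraries, without passing the test. The values were 50.3, 15.1, 16.5 and 33.8 CPM in db/db and 14.9, 26.8, 15.9 and 37.4 CPM in CT db. They were 10.9, 4.29 and 15.6 CPM in ob/ob and 2.87, 17.2 and 9.18 CPM in CT ob. An ob/ob library exceeded a db/db library in 1 of 12 pairs, and a CT ob library exceeded a CT db library in 2 of 12. The log2 fold change was -1.49 between mutants (SE 0.58, adjusted p = 0.464) and -1.30 between controls (SE 0.59, adjusted p = 0.174), neither past the threshold, against 0.28 (SE 0.40, adjusted p = 0.889) in the db model and 0.08 (SE 0.67, adjusted p = 0.985) in the ob model. The control value ran from -2.05 without CT ob replicate 2 to -0.83 without CT ob replicate 1, with no call. Summed stroma markers, in the same library order, were 40.5, 11.6, 9.53 and 35.3 CPM in db/db and 14.4, 22.2, 29.1 and 19.9 CPM in CT db. They were 26.2, 6.51 and 24.6 CPM in ob/ob and 21.5, 84.0 and 30.6 CPM in CT ob. The part of stroma cells in the Ghr values was not tested.

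Prlr, the prolactin receptor (ENSMUSG00000005268, chromosome 15, 10177258 to 10349959, plus strand), known in rodents for its role in the corpus luteum, was dominated by single libraries. Levels were 87.0, 52.5, 36.4 and 53.4 CPM in db/db and 43.3, 134.6, 53.9 and 67.4 CPM in CT db. They were 48.3, 19.4 and 28.9 CPM in ob/ob and 18.2, 135.3 and 16.7 CPM in CT ob. CT db replicate 2 and CT ob replicate 2 stood far above the rest of their groups. CT ob replicate 2 also held the highest luteal marker sum of the 14 libraries, 329.6 CPM beside 14.5 to 123.6 CPM elsewhere. Its sums for stroma (84.0 CPM) and endothelium (40.4 CPM) were the highest of the 14 as well. CT db replicate 2, at 86.5 CPM of luteal, 22.2 of stroma and 5.32 of endothelial markers, had none of the highest sums of its group. The part of luteal, stroma and endothelial cells in the Prlr values was not tested. The log2 fold change was -0.40 in the db model (SE 0.35, adjusted p = 0.808) and -0.82 in the ob model (SE 0.77, adjusted p = 0.788), and the latter turned to 0.88 (adjusted p = 0.685) without CT ob replicate 2. Between controls, the value of -0.40 (SE 0.61, adjusted p = 0.704) became -2.10 without that library, with an adjusted p = 0.0302, so the call there rests on whether 1 library is kept. The same value was 0.05 without CT db replicate 2, 0.03 without CT ob replicate 1 and 0.01 without CT ob replicate 3, and between mutants it was -0.83 (SE 0.63, adjusted p = 0.850).

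Per length, Ghr was below Prlr in 10 of 14 libraries, at 0.235 to 1.16 times its level with a median of 0.592, and above it in 4, namely db/db replicates 1 and 4, CT db replicate 4 and CT ob replicate 3. The log2 ratio of their counts, which takes no account of length, was -1.09 ± 0.505 in db/db and -1.73 ± 0.730 in ob/ob (SD, n = 4 and 3), and -1.61 ± 0.609 and -2.15 ± 1.14 in their controls (n = 4 and 3), with overlap in all 4 contrasts and p from 0.2 to 0.6 by exact permutation. Over the 14 libraries, log2 CPM of Ghr and Prlr had r = 0.741. Of the 16 genes listed for growth hormone and prolactin, 10 were tested in the db model and 11 elsewhere, and 0 were called in any comparison. The smallest p values included those of Socs3 in the db model (given above), between controls (1.11, adjusted p = 0.204) and in the interaction (-1.07, adjusted p = 0.713), and of Stat5b, a main transducer of both receptors, between mutants (0.26, adjusted p = 0.860). Gh had 1 count in 1 ob/ob library, Prl had 2 counts in 1 CT ob library, and both were at 0 in all others.

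Thra encodes the thyroid hormone receptor α (ENSMUSG00000058756, chromosome 11, 98629109 to 98661924, plus strand). It measured 23.9, 38.7, 21.6 and 21.9 CPM in db/db and 14.1, 17.3, 19.8 and 19.9 CPM in CT db. The ob/ob libraries stood at 18.1, 26.7 and 19.9 CPM and the CT ob libraries at 24.1, 14.9 and 62.9 CPM. All db/db values exceeded all CT db values, as did 1.85% of all genes tested in that contrast. The highest Thra value was in CT ob replicate 3, the library with the lowest TMM factor and the highest theca marker sum (1440.3 CPM). Of that sum, 1279 CPM came from Hsd3b1 alone, and Insl3, another theca marker, was at 0 in every CT ob library. The part of theca cells in the Thra value was not tested. In the db model the log2 fold change of Thra was 0.57 (SE 0.23, unadjusted p = 0.0294, adjusted p = 0.608 by edgeR). It was -0.65 in the ob model (SE 0.49, adjusted p = 0.738) and 0.14 without CT ob replicate 3. Between controls it was 0.93 (SE 0.38, adjusted p = 0.135), 0.13 without CT ob replicate 3 and 1.28 (adjusted p = 0.0429) without CT ob replicate 2, and between mutants -0.29 (SE 0.38, adjusted p = 0.942). The interaction of -1.22 (SE 0.54, adjusted p = 0.594) was not called either, and it ran from -1.57 without CT ob replicate 2 to -0.41 without CT ob replicate 3. Thra shares 1694 bases, 21.37% of its exonic length, with Nr1d1 on the opposite strand, and since the library kit does not mark strand, reads of the shared part cannot be assigned to either gene.

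Thrb encodes the thyroid hormone receptor β (ENSMUSG00000021779, chromosome 14, 4429815 to 4809435, minus strand) and was the scarcer of the pair. The ob/ob libraries held 58, 52 and 68 counts, or 10.01, 7.20 and 8.37 CPM, and the CT ob libraries 10, 16 and 17 counts, or 1.92, 3.99 and 5.78 CPM. In the db model, there were 3.84, 6.45, 1.73 and 3.44 CPM in db/db, from 4 to 15 counts, and 3.66, 3.19, 5.50 and 6.01 CPM in CT db, from 13 to 22 counts. Each ob/ob library lay above all 11 others. Over all genes tested, 8.2% were likewise higher in ob/ob than in CT ob without overlap, and 5.53% higher than in db/db. The log2 fold change was 1.15 in the ob model (SE 0.48, unadjusted p = 0.0414, adjusted p = 0.611) and 1.14 between mutants (SE 0.44, adjusted p = 0.464). It was -0.25 in the db model (SE 0.42, adjusted p = 0.915) and -0.26 between controls (SE 0.46, adjusted p = 0.744), and the interaction was 1.40 (SE 0.64, unadjusted p = 0.0452, adjusted p = 0.599). Leaving out 1 library moved the ob value to between 0.80 and 1.54. In the same contrast, the 12 granulosa markers had a median log2 fold change of 0.68 against -0.036 over all genes tested, with 5 higher at an unadjusted p under 0.05 and 0 called, and their sums did not overlap (18776 to 26992 CPM in ob/ob, 11621 to 16606 CPM in CT ob). The stroma markers (4 of 6 tested) and endothelial markers (3 of 6 tested) had a median of -0.91 each, with 0 above 0. The luteal markers (4 of 5 tested) had a median of -2.67, with 1 above 0. The genes with the smallest p of these lists were Pdgfra (stroma) at -1.82, Kdr (endothelium) at -2.55 and Akr1c18 (luteal) at -4.11 (adjusted p = 0.539 each by edgeR). The summed oocyte markers overlapped. Between mutants, 8 of 8 oocyte markers were higher in ob/ob at an unadjusted p under 0.05 by edgeR, with a median log2 fold change of 3.65 and 0 called. Their sums did not overlap there (125 to 680.2 CPM in ob/ob, 5.54 to 60.6 CPM in db/db). The part of these cell types in the Thrb value was not tested.

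Per length, Thra exceeded Thrb in 14 of 14 libraries, by 2.09 to 13.97 times with a median of 5.22. The log2 ratio of their counts was 2.57, 2.55, 3.49 and 2.62 in db/db and 1.90, 2.39, 1.82 and 1.71 in CT db, so that the 2 groups did not overlap. It was 0.851, 1.88 and 1.25 in ob/ob and 3.59, 1.87 and 3.41 in CT ob. The db/db mean was higher than that of CT db by 0.849 (p = 0.0286, the smallest the exact permutation test allows, adjusted p = 0.172 over 12 ratio tests, higher in 16 of 16 pairs). The ob/ob mean was lower than that of db/db by 1.48 on the log2 scale, without overlap (exact permutation p = 0.0286, adjusted p = 0.172). In ob/ob against CT ob, the difference was -1.63 with overlap (exact permutation p = 0.2, smallest possible 0.1), and between controls 1.0 (exact permutation p = 0.143). None of the 12 ratio tests passed the adjustment.

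**Figure D4:**
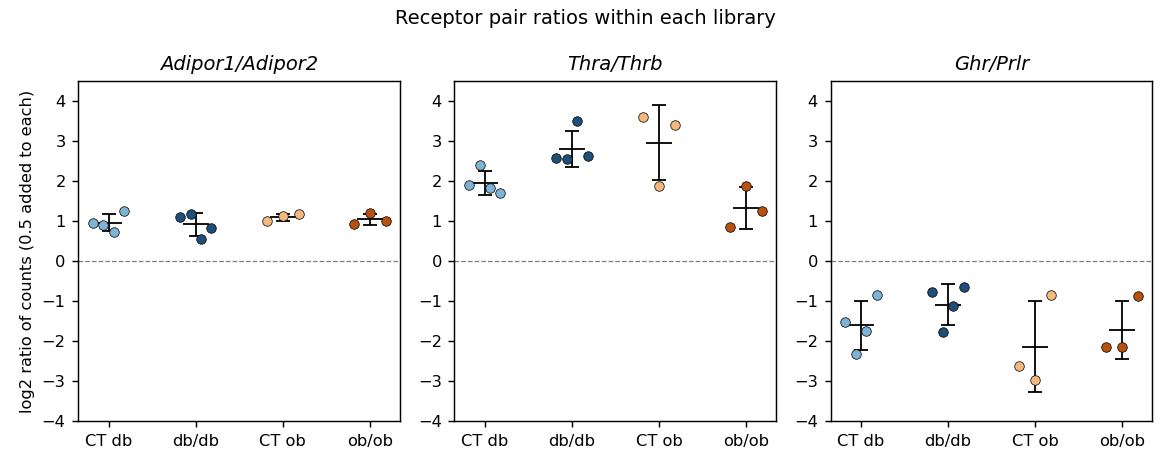
Log2 ratio of the counts of 3 receptor pairs within each library (points), by group, with the mean (bar) and SD (whiskers), n = 4, 4, 3 and 3 from left to right and 0.5 added to each count. Adipor1/Adipor2 is nearly constant across groups, Thra/Thrb is lowest in ob/ob with a mean of 1.33, and Ghr/Prlr is below 0 in every library on this scale of counts, while per length it is above 0 in 4 of 14.

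Of the 22 genes listed for thyroid hormone transport, conversion and action, 14 or 15 were tested and 1 was called. Slc16a10, a transporter of aromatic amino acids and thyroid hormone, was at 21.7 ± 10.8 CPM in CT ob and 7.90 ± 1.29 CPM in CT db (log2 fold change 1.45, SE 0.35, adjusted p = 0.0290), and it also had the smallest p between mutants at 1.28 (SE 0.37, adjusted p = 0.344), with 12.3 ± 3.11 CPM in ob/ob and 5.06 ± 1.5 CPM in db/db. Its call between controls remained in 2 of 7 fits with a control library left out, those without CT db replicate 1 or CT ob replicate 2. Klf9, a direct target of both thyroid hormone and glucocorticoid receptors, had the smallest p of the list in the db model, from 36.8 ± 14.3 CPM in CT db to 20.8 ± 3.82 CPM in db/db (-0.82, SE 0.29, adjusted p = 0.567). Slco1c1, a thyroxine transporter, led the ob model at 2.12 (SE 0.65, adjusted p = 0.555), with 1 to 5 counts in CT ob libraries and 13 to 37 in ob/ob libraries. The list had a median log2 fold change of 0.13 for db and -0.0025 for ob, beside 0.01 and -0.04 over all genes tested.

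Nr3c1 encodes the glucocorticoid receptor (ENSMUSG00000024431, chromosome 18, 39543598 to 39652474, minus strand), which waits in the cytoplasm in a complex with HSP90 and FKBP proteins. It stood at 13.2, 23.2, 9.09 and 20.3 CPM in db/db and at 7.32, 8.95, 10.2 and 16.1 CPM in CT db. The ob/ob libraries gave 20.02, 16.3 and 10.8 CPM and the CT ob libraries 11.3, 8.72 and 10.2 CPM. The mutant was above its control in 13 of 16 library pairs of the db model and in 8 of 9 pairs of the ob model, with overlap in both. The log2 fold change came to 0.63 for db (SE 0.33, adjusted p = 0.682) and 0.63 for ob (SE 0.33, adjusted p = 0.656), with an interaction of -0.0019 (SE 0.50, adjusted p = 0.999). Neither change passed the test, and the values between mutants (-0.07, SE 0.34) and between controls (-0.07, SE 0.35) were smaller than their SE.

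Of the 18 genes listed for glucocorticoid action, 14 to 16 were tested and 1 was called. Tsc22d3, the glucocorticoid-induced leucine zipper gene, fell by 0.75 on the log2 scale in CT ob against CT db (SE 0.19, adjusted p = 0.0326), from 106 ± 14.4 CPM in CT db to 63.1 ± 8.52 CPM in CT ob, and it led the interaction at 0.68 (adjusted p = 0.548). The call remained in the same 2 of 7 fits as that of Slc16a10. Klf9 led this list in both models, at -0.82 for db as given above and at -0.63 for ob (SE 0.28, adjusted p = 0.611), and Fkbp4, a cochaperone of the receptor, led the contrast of mutants at 0.41 (adjusted p = 0.588). Of 14 other hormone receptors and co-receptors, 8 or 9 were tested, and 1 was called. Fshr, the receptor of follicle stimulating hormone and a granulosa marker, fell by 1.72 on the log2 scale between controls (SE 0.35, adjusted p = 0.0163), from 271 ± 66.9 CPM in CT db to 82.3 ± 42.3 CPM in CT ob, and was called in 6 of 7 such fits, not without CT ob replicate 3. Leading genes of that list also included Igf1r in the db model (0.50, adjusted p = 0.621), Fshr in the ob model (1.05, adjusted p = 0.584) and the interaction (1.31, adjusted p = 0.523).

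The genes whose log2 CPM was most like that of a member over the 14 libraries were searched among 12554 others. Ghr had the closest match, Selenop at r = 0.961, followed by Cav1 at 0.949. Thra was most like Ndufb10 (0.938) and Psme2 (0.937), Adipor1 like Fgfrl1 (0.90) and Hps1 (0.892), and Glp1r like Aldh1b1 (0.899) and Dkkl1 (0.874). For Prlr these were Vamp4 (0.870) and Bcas3os1 (0.867), and for Nr3c1 Lgr6 (0.852) and Ripor3 (0.811). Thrb had the weakest matches, Myom1 at 0.754 and Amigo3 at 0.751. The libraries differ in depth and colony, and several of the matched genes were as scarce as 1 to 3 counts in a library, so these values describe the 14 libraries and carry no test.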

How the data were processed

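The authors deposited raw counts per Ensembl gene for 14 libraries prepared from polyadenylated RNA by bead capture, amplification and Nextera XT tagmentation of 100 to 200 pg of cDNA, without molecular identifiers, and sequenced as single 75 bp reads. The study's methods give cutadapt, STAR, GRCm39 and featureCounts, whereas the submitters' processing notes give Trim Galore 0.6.2, HISAT2 2.1.0 and GRCm38, which was not settled here. Whether strand or multi-mapped reads were used in counting is not given in the sources used here. Columns were matched to groups by name, control columns being named as heterozygous but labelled wild type, and the columns carry no replicate number of the labels, so replicate numbers here follow column order.

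From the counts, edgeR 4.0.16 (R 4.3.3) was run with TMM scaling, a filter keeping genes with enough libraries near a minimum of 10 counts and a total of at least 15, and glmQLFTest with BH adjustment. The contrasts within a model used its own libraries and the others used all 14. Exact permutation tests were two-sided. DESeq2 1.42.0 and limma-voom 3.58.1, RLE factors, library totals alone, no filter, 1 common fit and the removal of each library were alternatives. Exonic lengths came from the merged exons of all isoforms in GENCODE annotation of GRCm39. The isoforms present in these libraries were not measured, so orders and ratios per kilobase depend on these lengths. Promoter windows came from RefSeq, with entries used for 7 members. The scripts were tested on simulated data.

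The members and gene lists were chosen with earlier results of these data known. Of the listed genes, those called in any comparison and otherwise the gene with the smallest p per list and comparison were named, with the ligand genes and the 2 genes most alike to each tested member. A few genes that this rule names are not reported here.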

Additional observations from a re-analysis of the deposited data

Results flagged for a closer look

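In the 24 groups of 4 libraries that were checked, 4 held 1 library set apart from the other 3 by more of the group's range than Dixon's 95% limit allows, a limit that chance exceeds in about 1 of 20 groups. Adipor2 was at 151.1 CPM in db/db replicate 3 and at 130.2 CPM in CT db replicate 3, each above the rest of its group. Thra was at 38.7 CPM in db/db replicate 2, above the other db/db libraries. The log2 ratio of Thra to Thrb was 3.49 in db/db replicate 3, the library with the fewest Thrb counts, 4. Groups of 3 libraries were not checked, and the cause was not tested for any of these.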

How the results depend on the processing

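No paired analysis was possible because the columns carry no replicate number of the labels. Of 215 log2 fold changes of members recomputed with another test, scaling, filter or fit, 199 kept their direction and their side of the threshold, 9 turned sign and 7 passed the threshold. Without a low-count filter, 1 member was called in the db model (Glp1r, 2.18, adjusted p = 3.61e-04), 3 between mutants (Glp1r -3.69, adjusted p = 1.80e-06, Ghr -1.43, adjusted p = 6.59e-04, Prlr -0.78, adjusted p = 0.0497) and 2 between controls (Ghr -1.33, adjusted p = 0.00173, Thra 0.85, adjusted p = 0.0476). That fit also called 270, 359, 535, 1727 and 329 genes in all in the 5 comparisons, and DESeq2 44, 86, 72, 1563 and 72, against 1, 0, 2, 834 and 0 by edgeR, and DESeq2 called 1 member, Glp1r between mutants (-3.78, adjusted p = 0.00185). The cause was not tested.

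Values near 0 turned sign. Adipor1 became 0.032 in the db model with library totals alone and, between mutants, 0.010 with library totals alone and 0.038 without the filter. The Nr3c1 interaction became 0.0091 with DESeq2, 0.012 with RLE factors, 0.016 with library totals alone and 0.077 without the filter, and limma-voom gave 0.13 for Ghr and 0.083 for Prlr in the interaction.

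Leaving out 1 library at a time gave 0 to 2 members called between controls, the 2 being Prlr (-2.10) and Thra (1.28) without CT ob replicate 2, and 0 in the other 4 comparisons. The 7 listed genes called between controls, in an alternative chosen after seeing the data, numbered 0 (without CT ob replicate 3) to 7 (without CT db replicate 1). Log2 fold changes that turned sign ranged as follows. In the db model, Adipor1 ran from -0.10 to 0.040, Adipor2 from -0.18 to 0.15, Ghr from -0.12 to 0.58 and Prlr from -0.67 to 0.061. In the ob model, Lepr ran from -1.04 to 0.38, Adipor1 from -0.19 to 0.22, Adipor2 from -0.055 to 0.24, Ghr from -0.37 to 0.81, Prlr from -1.26 to 0.88 and Thra from -1.001 to 0.14, and the Glp1r difference in mean CPM from -0.11 to 0.38. Between mutants, Adipor1 ran from -0.30 to 0.11, Adipor2 from -0.38 to 0.027 and Nr3c1 from -0.28 to 0.13. Between controls, Nr3c1 ran from -0.21 to 0.20, Prlr from -2.10 to 0.053 and Thrb from -0.66 to 0.086. In the interaction, the ranges were -0.16 to 0.25 for Adipor1, -0.095 to 0.30 for Adipor2, -0.65 to 0.56 for Ghr, -0.89 to 1.26 for Prlr and -0.27 to 0.21 for Nr3c1. The log2 Adipor1/Adipor2 ratio ran from -0.13 to 0.072 (db model) and -0.13 to 0.0068 (ob model), and Ghr/Prlr from -0.0040 to 1.07 (ob model).

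Lepr had 3 counts or fewer in 8 of 14 libraries and Glp1r in 3, where counting error is large. With 3 libraries a side, the smallest exact permutation p is 0.1.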
